A study of Rattus norvegicus with 40 samples.

Results

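Gene expression in the gastrocnemius, a hind limb muscle of the calf, was compared between male Wistar rats of 22 and 20 months. The comparison took the 20 gastrocnemius libraries, by the muscle and age given in the labels, of the 40 libraries of the series. There were 10 libraries at 22 months and 10 at 20 months, each from a different animal, so the ages were not paired. The remaining 20 libraries were from triceps, a fore limb muscle, of the same 20 animals. Wistar rats are an outbred strain, and the labels name no treatment or genetic change in either age group. The RNA was polyadenylated, came from a miRNeasy extraction and was sequenced as TruSeq RNA v2 libraries.

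Gastrocnemius is made mostly of multinucleated fibres, and a small set of transcripts for contractile and energy-producing proteins takes a large part of the messenger RNA of such tissue. With age, rat hind limb muscle loses mass, some fibres lose contact with their nerve, and the mix of fibre types shifts. Animals of 1 age can stand at different stages of this decline, so the comparison of ages and the differences between animals of the same age are both of interest. The deposited table gives genes by Ensembl rat identifier without names, and no symbol could be matched. What the genes do is therefore not stated, and the labelled tissue could not be checked against its markers.

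The 20 libraries held total counts of 11569197 to 47807240, with overlapping ranges at both ages. Genes were kept where they reached 1 CPM, the counts of a gene scaled to a common library total, in 10 or more of the 20 libraries, which left 12659 of 32545 genes. Counts were scaled by TMM (trimmed mean of M-values), a factor per library that sets the bulk of genes level. A gene was called at an adjusted p under 0.01 in the edgeR quasi-likelihood test.

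Between 20 and 22 months, 0 of 12659 genes (0.0%) were called, and the smallest adjusted p by edgeR was 0.352. An unadjusted p under 0.05 was reached by 1308 genes (10.3%), where 633 would be expected at a rate of 5%. Of these, 622 (4.91%) were higher and 686 (5.42%) lower at 22 months. The lower count was 436 without replicate 2 of 20 months and 444 without replicate 6 of 20 months, and with 1 animal left out at a time the counts ran from 452 to 770 higher and from 436 to 932 lower. limma-voom also called 0 genes and put 1408 at an unadjusted p under 0.05, and the DESeq2 Wald test called 1 gene and put 1460 there. Genes are not independent of one another, so the excess over 5% is a count and not a test.

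The median difference was smaller than the median spread between animals. Over all 12659 genes the median size of the log2 difference was 0.11, and the median standard error of that difference was 0.12. The SD of log2 CPM between animals had a median of 0.26 at 20 months and 0.25 at 22 months. The log2 difference was over 1 in size, which is a doubling or halving, in 36 genes (0.284%), of which 24 were higher and 12 lower at 22 months. Among the 1308 genes at an unadjusted p under 0.05 the median size was 0.29, with a range of -1.32 to 1.91. The 95% interval of limma-voom lay within a log2 difference of 1 in either direction for 12024 genes (94.98%), and within a 1.5-fold difference for 10060 genes (79.5%). No gene separated all animals of 22 months from all animals of 20 months (0.0% of genes tested).

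The values by animal are given for 4 genes, the 2 with the smallest unadjusted p in each direction, none of which passed the edgeR test. They were picked from these same data, so their differences can look larger than they are. How far the ages separate in them is no independent support. ENSRNOG00000050318 had the smallest p. Its lowest, median and highest levels were 1.25, 1.90 and 2.97 TMM-scaled CPM at 20 months and 2.62, 3.31 and 5.54 at 22 months. The ages overlapped, but 8 of 10 animals of 22 months lay above every animal of 20 months. The younger mean was 2.03 ± 0.534 and the older mean 3.61 ± 0.873 (SD, n = 10 each), which by edgeR is 0.83 ± 0.16 higher in log2 (SE, adjusted p = 0.352). This is a gene of low expression, read from 14 to 187 counts per library, and it was the gene called by DESeq2, with an adjusted p of 0.00194. Over the other alternatives tried, with each animal left out in turn included, its log2 difference lay between 0.74 and 0.96.

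ENSRNOG00000000540 was the other gene on the higher side. It stood at 10.5, 14.4 and 16.3 CPM (lowest, median and highest) at 20 months and at 15.9, 17.4 and 19.9 CPM at 22 months. A single animal of 22 months was within the range of the younger animals, and the other 9 were above it. The mean went from 13.9 ± 1.76 to 17.7 ± 1.29 CPM (SD, n = 10 each), which edgeR put at 0.35 ± 0.07 in log2 (SE, adjusted p = 0.412). It was read from 165 to 990 counts per library, and the DESeq2 Wald test gave it an adjusted p of 0.0123.

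On the lower side, ENSRNOG00000059215 was at 28.5, 33.1 and 36.7 CPM at 20 months and at 22.3, 27.0 and 30.8 CPM at 22 months (lowest, median and highest). All 10 older animals lay below the median of the younger ones, and 7 of 10 lay below every younger animal. The younger mean was 32.9 ± 2.56 CPM and the older mean 27.1 ± 2.61 CPM (SD, n = 10 each), or -0.28 ± 0.06 in log2 by edgeR (SE, adjusted p = 0.412). With counts scaled by library totals alone the log2 difference was -0.16 (adjusted p = 0.238 by edgeR). The DESeq2 Wald test gave ENSRNOG00000059215 an adjusted p of 0.0303.

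ENSRNOG00000017577 was at 5.05, 9.31 and 12.7 CPM at 20 months and at 4.41, 5.64 and 7.93 CPM at 22 months (lowest, median and highest). Again all 10 older animals lay below the younger median, but the ranges overlapped more, and 3 of 10 lay below every younger animal. The younger mean was 8.97 ± 2.22 CPM and the older mean 5.92 ± 1.25 CPM (SD, n = 10 each), or -0.60 ± 0.15 in log2 by edgeR (SE, adjusted p = 0.412). The DESeq2 Wald test gave ENSRNOG00000017577 an adjusted p of 0.136. In bulk muscle, fewer cells of a type and less RNA per cell cannot be told apart as the source of a lower value.

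**Figure D1:**
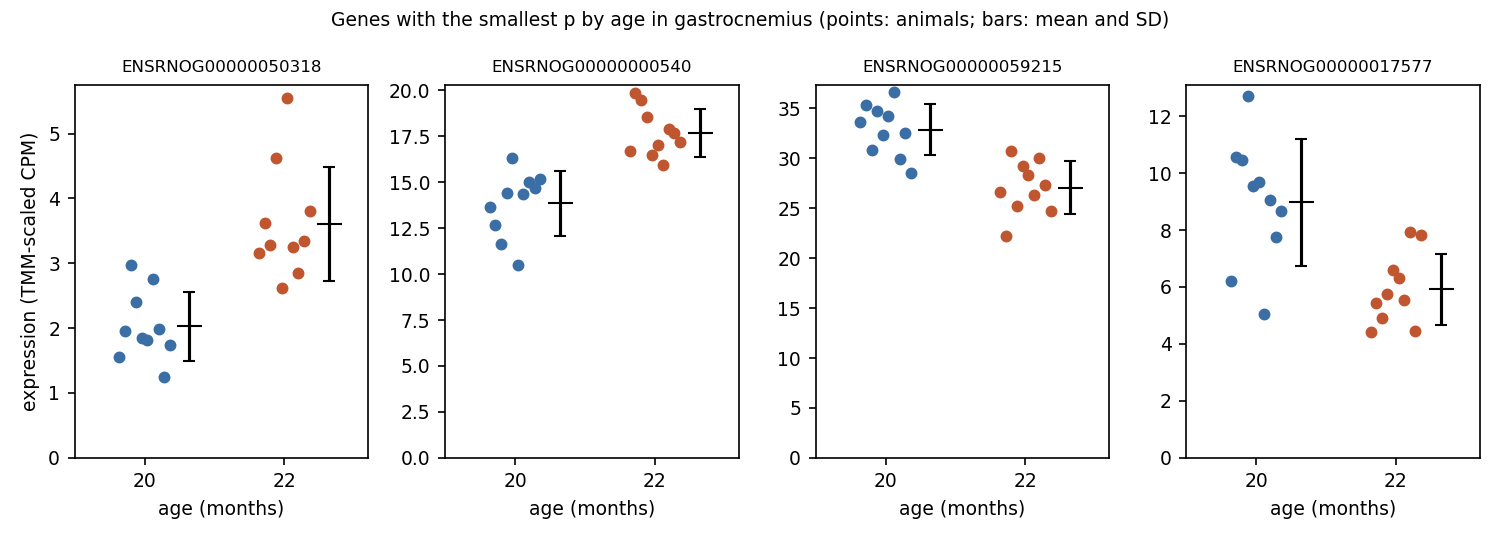
Expression in TMM-scaled CPM by age in months for the 4 genes with the smallest p in either direction, 1 panel per gene; points are animals, and bars give the mean and SD of 10 animals. The ages overlap in every panel, and the 22-month animals sit mostly above the 20-month animals in the left pair of genes and mostly below them in the right pair.

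The same 4 genes were read in triceps of the same animals. ENSRNOG00000059215 was at 24.9, 30.0 and 39.9 CPM in triceps at 20 months and 20.5, 25.8 and 29.2 CPM at 22 months (lowest, median and highest), or -0.29 ± 0.09 in log2 by edgeR (SE, adjusted p = 0.513). The log2 difference of ENSRNOG00000017577 in triceps was -0.42 ± 0.17 (SE), with an adjusted p of 0.535, and that of ENSRNOG00000000540 was 0.13 ± 0.09 (SE), with an adjusted p of 0.717, both by edgeR. ENSRNOG00000050318 was too low in triceps to be tested, with medians of 0.751 CPM at 20 months and 1.07 CPM at 22 months. None of the 4 age differences was shown to differ between the muscles. The edgeR test of that difference gave an adjusted p of 0.999 for each gene. Its unadjusted p was 0.0805 for ENSRNOG00000050318, 0.0592 for ENSRNOG00000000540, 0.957 for ENSRNOG00000059215 and 0.431 for ENSRNOG00000017577. This fit did not use that both muscles came from the same animal.

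Over all genes, the age comparison in triceps called 0 of 12345 genes (0.0%), with 1084 (8.78%) at an unadjusted p under 0.05. The difference of the age changes between gastrocnemius and triceps was tested directly in all 40 libraries, and 0 of 12980 genes were called (0.0%), with 389 genes (3.0%) at an unadjusted p under 0.05. With the animal as a block, which uses that both muscles came from the same animal, the test called 0 genes and put 585 at an unadjusted p under 0.05. DESeq2 and limma-voom called 0 genes as well, with 429 and 403 genes at an unadjusted p under 0.05.

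The age difference varied with the expression level of the gene. Genes were sorted into 5 classes by their mean CPM over the 20 libraries, with limits at 5, 20, 100 and 1000 CPM, and the classes are described without a test. Below 5 CPM, 39.9% of 2734 genes were lower at 22 months, and the median log2 difference was 0.05. From 20 to 100 CPM, 51.3% of 4533 genes were lower. From 100 to 1000 CPM, 754 of 1239 genes were lower (60.9%), with a median of -0.05. Above 1000 CPM, 70 of 90 genes were lower (77.8%), with a median of -0.21 and the middle 50% of genes between -0.31 and -0.07. Over all genes 47.5% were lower and the median was 0.01, so the most abundant transcripts lay on the lower side of the rest.

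Among genes at an unadjusted p under 0.05 a like tilt was seen, but the share lower was not largest in the top class. Over all genes, 5.42% were lower and 4.91% higher at 22 months at this threshold. Below 5 CPM, 62 genes (2.27%) were lower and 110 (4.02%) higher. From 100 to 1000 CPM, 146 genes (11.8%) were lower and 52 (4.197%) higher. Above 1000 CPM, 8 genes (8.89%) were lower and 2 (2.22%) higher, so the shares rest on few genes. The smallest adjusted p above 1000 CPM was 0.416 by edgeR. The median standard error in this class was 0.19, close to the size of its median difference. With any single animal left out, 66 to 73 of the 90 genes were lower, and the class median lay between -0.25 and -0.15. The mean log2 CPM of these 90 genes was 11.05 to 11.17 in replicates 2, 4, 9 and 10 of 22 months. In the other 22-month animals it was 11.41 to 11.58, within the 11.27 to 11.78 seen at 20 months. The lower level thus lay in these 4 animals, which were not left out together.

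The level at which the classes lay depended on the scaling. When counts were scaled by library totals alone, the median of all genes moved to 0.14, 59 of the 90 most abundant genes were lower, and their median was -0.08. Relative to the median of all genes, the 90 genes were at -0.22 under both scalings. A scaling factor moves all genes of a library alike, so this gap could hardly change, and its likeness is no check. The split of the genes at an unadjusted p under 0.05 changed from 622 higher and 686 lower with TMM to 2176 higher and 195 lower with library totals. Which of these splits describes the RNA content per fibre cannot be told from these counts, which are relative within each library.

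**Figure D2:**
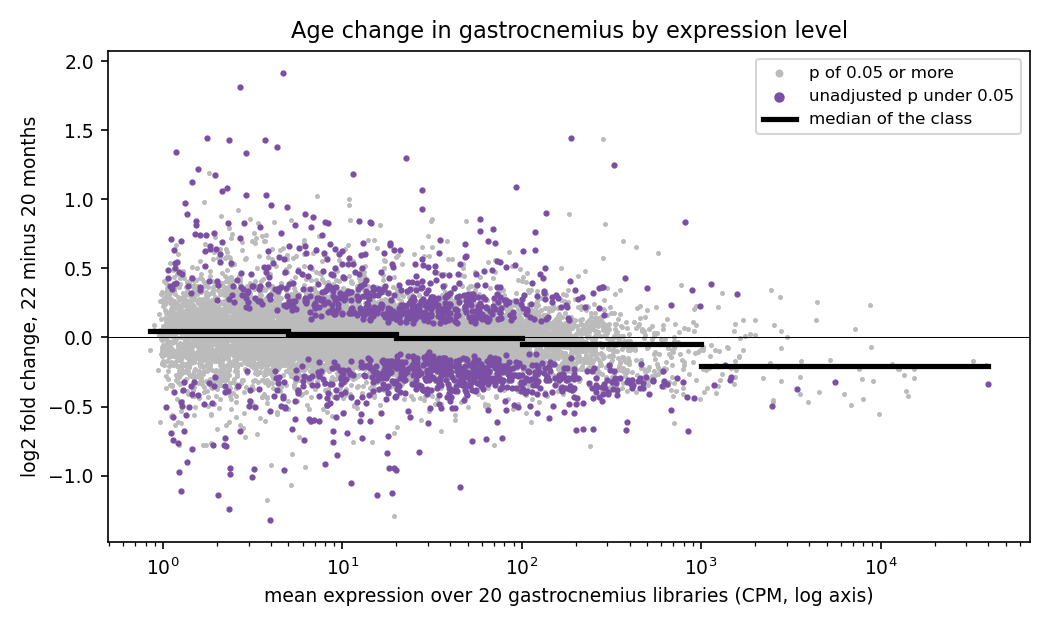
Log2 difference of each gene between 22 and 20 months against its mean expression in CPM over 20 gastrocnemius libraries, on a log axis; purple points are the 1308 genes at an unadjusted p under 0.05, and black bars are class medians. The bars step from 0.05 below 5 CPM to -0.21 above 1000 CPM.

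In triceps, the 90 genes above 1000 CPM in gastrocnemius had a median log2 age difference of -0.04, with 55 of 90 lower. The median difference of the age changes between the muscles over these genes was -0.13. As a share of all counts, the 90 genes held 47.2% ± 3.16 of the younger and 44.0% ± 4.22 of the older gastrocnemius libraries, and 49.3% ± 2.84 and 48.3% ± 1.35 of those from triceps (SD, n = 10 in each group).

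A tilt of this kind shows in how evenly the counts of a library are spread over genes. The measure used was the share of counts in the 50 most abundant genes of each library. At 20 months its lowest, median and highest values were 37.3, 43.0 and 47.4%, and at 22 months they were 33.7, 40.5 and 44.9%. The ages overlapped widely, and the difference in means of -3.22 percentage points (95% interval -6.81 to 0.37) did not pass a two-sided permutation test (p = 0.0738, and 0.112 after adjustment over 3 such comparisons). Each animal left out in turn gave p between 0.0347 and 0.138. It fell under 0.05 without replicate 5 of 20 months (0.0418) or replicate 5 of 22 months (0.0347).

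The number of genes detected was compared after each library was brought to the smallest total count, 11569197. At 20 months it was 16128, 16542 and 17175 genes (lowest, median and highest), and at 22 months 16352, 16700 and 17245 genes. The difference of 270.5 genes (95% interval -31.6 to 573) did not pass the permutation test either (p = 0.0744, adjusted 0.112). Without replicate 5 of 20 months or replicate 5 of 22 months p was 0.0233 and 0.0368.

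Any 10 values have a widest step, so the divisions at the widest step of the share given here are descriptions without a test. In 4 animals of 22 months, replicates 2, 4, 9 and 10, the 50 most abundant genes held 33.7 to 35.4% of counts, and 17132 to 17245 genes were detected at the smallest total. In the other 6 the share was 40.4 to 44.9%, with 16352 to 16713 genes, and no 22-month animal lay between. The widest step between neighbouring 22-month animals was 5.04 percentage points of share, against 3.02 points at 20 months. There the widest step also set 4 animals, replicates 3, 4, 5 and 7 with shares of 37.3 to 39.8% and 16631 to 17175 genes, apart from the other 6, with 42.8 to 47.4% and 16128 to 16568 genes. On genes detected, these 4 animals followed closely on the other 6, with 16631 after 16568. A wider gap lay within the 4, between 16834 and 17175 genes. The labels give no batch, date or muscle mass that could be set beside these divisions, and their source was not tested.

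In triceps of the same animals, the share of the 50 most abundant genes was 44.9% ± 2.98 in younger and 43.9% ± 1.37 in older animals (SD, n = 10 each). The difference between both muscles of an animal, gastrocnemius minus triceps, was -2.61 ± 4.45 percentage points in younger and -4.83 ± 3.83 points in older animals (SD, n = 10 each), and the comparison of ages did not pass (difference -2.23 points, 95% interval -6.13 to 1.68, permutation test, p = 0.243, adjusted 0.243). The shares in gastrocnemius and triceps of an animal had a Pearson r of 0.224 over 20 animals (95% interval -0.242 to 0.607, permutation p = 0.343, adjusted 0.386) and a Spearman rho of 0.2 (p = 0.397), with r 0.105 without the 2 animals farthest from the median. Within ages r was 0.0357 at 20 months and 0.404 at 22 months, neither of which passed the test.

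Principal component analysis of the 12659 genes placed 33.9% of the variance on the first component (PC1), 17.0% on the second and 11.1% on the third. PC1 was turned so that the 22-month mean was higher, so its direction by age is not a result. Scores ran from -30.7 to 28.9 at 20 months, with a median of -18.0, and from -28.7 to 50.2 at 22 months, with a median of 5.41. Both ages thus covered most of the axis, and the means differed by 0.625 of the pooled SD. In all, 1509 genes had a correlation with PC1 above 0.7 and 1417 below -0.7.

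The order of animals on PC1 followed how their counts were spread over genes. PC1 and the share were computed from the same counts, so the p-values below describe their relation and are no independent support for it. Over 20 animals PC1 and the share of the 50 most abundant genes had a Pearson r of -0.901 (95% interval -0.961 to -0.763) and a Spearman rho of -0.931, each with a permutation p of 1e-05, the smallest that 100000 permutations can give. Without the 2 animals farthest from the median share, r was -0.859 (permutation p = 2e-05). Within ages r was -0.844 at 20 months (permutation p = 0.0022, rho -0.818, p = 0.0057) and -0.925 at 22 months (permutation p = 0.00011, rho -0.903, p = 0.00084). Among the 6 animals above the widest step r was -0.639 at 20 months (exact permutation p = 0.186) and -0.742 at 22 months (exact permutation p = 0.0806). Neither passed the test, and both rest on 6 animals over a narrower range of the share. The 4 animals below the step at each age were not tested alone. Adjusted over 9 relations, p was 4.5e-05 over all animals, 0.0033 at 20 months and 0.000247 at 22 months.

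The number of genes detected at the smallest total moved with PC1 in the other direction. Over 20 animals r was 0.905 (95% interval 0.771 to 0.962) and rho 0.935, each with a permutation p of 1e-05, the smallest possible (adjusted 4.5e-05). Without the 2 animals farthest from the median r was 0.875 (permutation p = 1e-05). It was 0.856 within 20 months (permutation p = 0.00092, adjusted 0.00166) and 0.930 within 22 months (permutation p = 2e-05, adjusted 6e-05). All 3 measures come from the same counts, so the p-values of the relations between them are descriptions. PC1 of the 11330 genes under 100 CPM correlated at -0.895 with the share, and PC1 of counts scaled by library totals correlated at -0.964. Without TMM, the CPM of every gene depends on how much of a library the abundant genes take.

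**Figure D3:**
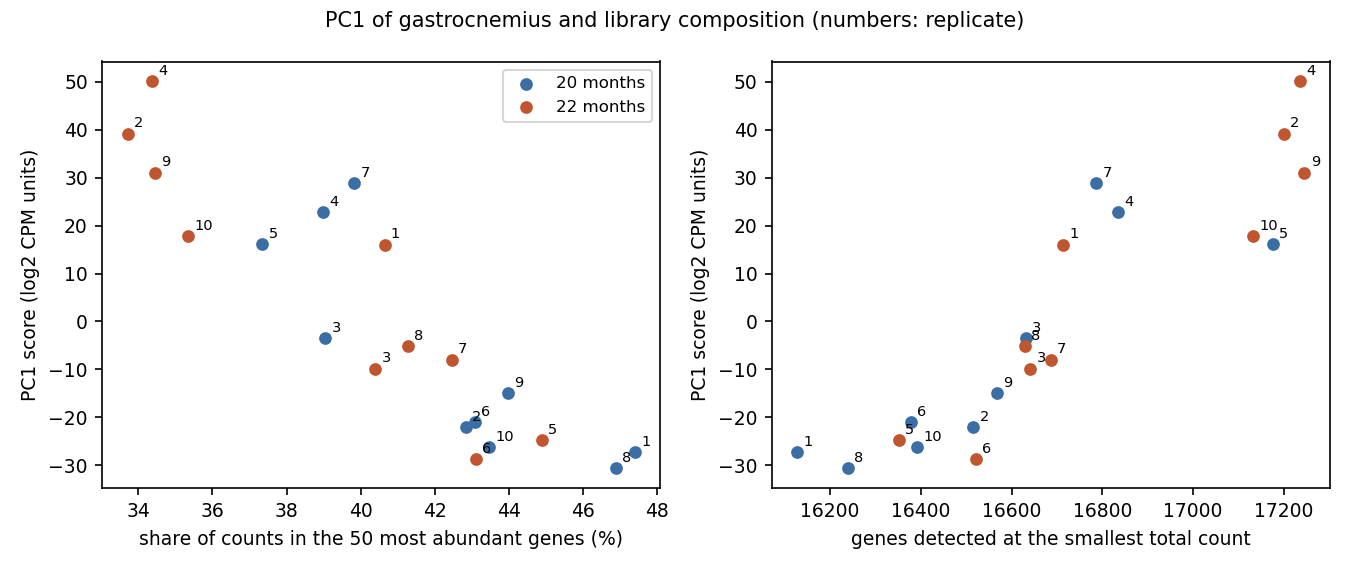
PC1 score of each gastrocnemius library in log2 CPM units against the percentage of its counts held by the 50 most abundant genes (left) and the number of genes detected at the smallest total count (right); points are animals, coloured by age and numbered by replicate. Both ages lie along the same bands, and 4 animals of 22 months (replicates 2, 4, 9 and 10) stand at the end with the lowest shares.

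Genes followed PC1 by expression level, as they did age. The median loading, in units of the SD of all loadings, was 0.54 below 5 CPM, 0.16 from 5 to 20 CPM, -0.11 from 20 to 100 CPM, -0.32 from 100 to 1000 CPM and -0.84 above 1000 CPM. Of the 90 most abundant genes, 69 had a loading below 0. Age differences and loadings were computed from the same libraries and PC1 was turned by age, so their like order is a description.

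The count of genes at an unadjusted p under 0.05 depended on which animals were in the comparison. With each animal left out in turn, 0 genes were called in all 20 cases, while the count ran from 888, without replicate 2 of 20 months, to 1702, without replicate 6 of 22 months. Without replicates 2, 4, 9 and 10 of 22 months, each left out alone, there were 960, 970, 984 and 987 genes, fewer than 1308. With each of the other 6 animals of 22 months left out alone, whose shares were 40.4% or more, there were 1104 to 1702 genes. With each animal of 20 months left out, there were 888 to 1596 genes. These counts have no test.

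**Figure D4:**
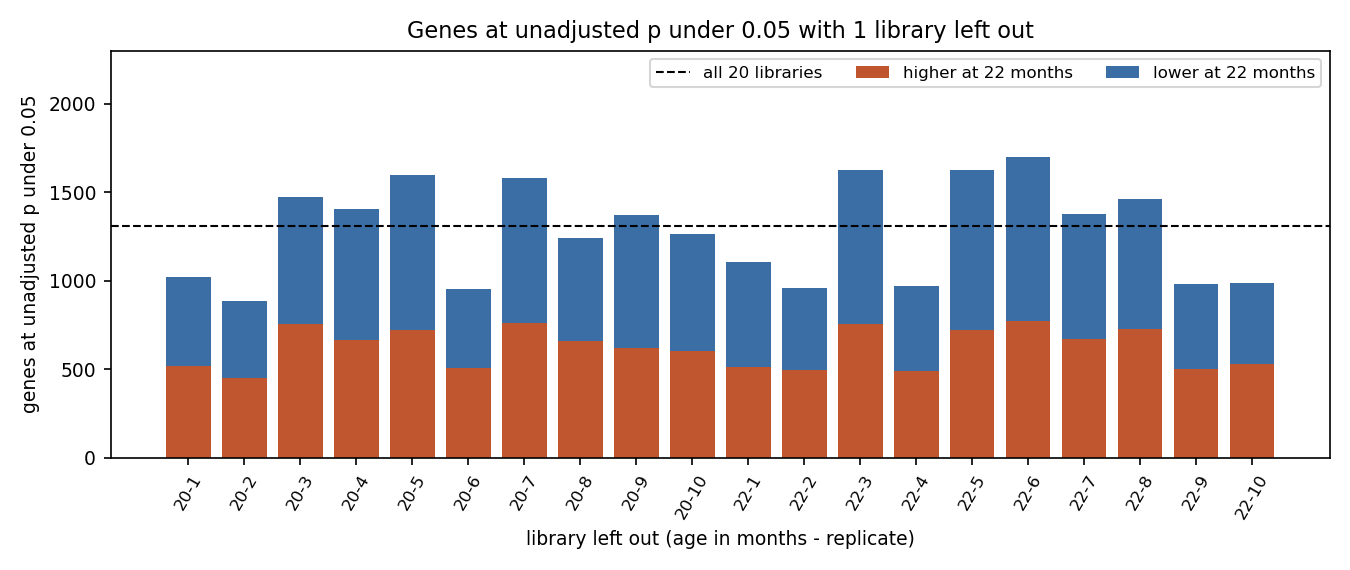
Number of genes at an unadjusted p under 0.05 when the library named on the axis (age in months and replicate) is left out, split into genes higher and lower at 22 months; the dashed line is the count of 1308 with all 20 libraries. Bars run from 888 to 1702, and all of them hold higher and lower genes in similar numbers.

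The spread between animals was much the same at both ages. Taken over genes, the SD of log2 CPM had a median of 0.26 in the younger and 0.25 in the older animals, and 5790 of 12659 genes (45.7%) had the larger SD at 22 months. Below 5 CPM the median SD was 0.41 at 20 months and 0.38 at 22 months, with 37.4% of genes more variable at 22 months. Mean total counts were 22395000 at 20 months and 27478000 at 22 months. Counting noise, which depends on the total, was not separated from this spread. Above 1000 CPM the median SD was 0.40 at both ages, with 54 of 90 genes more variable at 22 months.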

How the data were processed

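RNA sequencing of gastrocnemius and triceps gave 1 table of read counts per gene, which the authors deposited without normalization. The submitters' processing notes name CASAVA 1.8, STAR 2.3.0e, HTSeq and the build Rnor_6.0. The study's methods describe kallisto for rat, so values need not equal those of the study. Whether strand was used in counting is not given in the sources used here. All columns were matched to libraries by animal number and muscle in the titles, and 0 columns belonged to other series.

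The tests were run under R 4.3.3 in edgeR 4.0.16 (TMM, quasi-likelihood F-test, two-sided, Benjamini-Hochberg over all genes), limma 3.58.1 and DESeq2 1.42.0. The ages were fitted on the 20 gastrocnemius libraries, and triceps on its own 20. Log2 CPM used a prior count of 2. Permutation tests used 100000 resamples in SciPy 1.17.1, and intervals of correlations used Fisher's transformation. The edgeR step was tested on simulated data with known changes. Total counts ranged from 11569197 to 47807240 per gastrocnemius library. Libraries of 1 age differed by a chi-square of at least 12.7 per gene, so none were copies within sampling noise. The age tests set each difference against the variation between animals, as numbered in the labels, and counting noise is part of that variation.

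The members, lists and measures were chosen with earlier results of these data known, and the classes by expression level after the values were seen. The rule for named genes fell back to the 2 genes with the smallest p in each direction because, of 47357 genes in the RefSeq table at hand, 0 carried an Ensembl identifier. Gene lists, cell type markers, chromosomal positions, sequences and genes sharing reads were therefore not analysed here.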

Additional observations from a re-analysis of the deposited data

Results flagged for a closer look

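Replicate 4 of 22 months was the highest or the lowest library of the 20 in 24.1% of genes. The other 9 animals of 22 months were so in 3.47 to 13.0% of genes, and the animals of 20 months in 4.72 to 19.1%. The gap to the next animal of its age was 0.536 of the whole range, which passed the limit used for flagging. Such a value was looked for in 18 sets of 10 libraries and found in 1, and chance gives it in about 5% of sets. The total count of this library, 15175847, was the smallest at 22 months. At 20 months, replicates 9 and 3 had smaller totals (11569197 and 14474883) and were highest or lowest in 10.1 and 13.8% of genes. Replicate 4 of 22 months also had the highest PC1 score (50.2) and the lowest median correlation with the other libraries (0.953, where the highest was 0.977). Without it, 0 genes were called by edgeR, 970 genes had an unadjusted p under 0.05, the median log2 difference of the 90 genes above 1000 CPM was -0.17, and the correlation of PC1 with the share of the 50 most abundant genes was -0.887. The cause was not tested.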

How the results depend on the processing

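Every fit by edgeR or limma-voom called 0 genes for age in gastrocnemius, at adjusted p thresholds of 0.01 and 0.05 alike, and DESeq2 called 1 gene at 0.01 and 4 at 0.05. The count at an unadjusted p under 0.05 stayed within 1.5 times of 1308 except with library totals without TMM, a setting added after the data were seen, which gave 2371. With each animal left out in turn it was 888 to 1702, with 0 called throughout. DESeq2-type size factors moved the split to 566 higher and 748 lower, and no filter on low counts, with 22345 genes tested, to 982 higher and 857 lower. The log2 differences of the 4 named genes kept their direction in every alternative that tested them, with ranges of 0.31 to 0.48 for ENSRNOG00000000540, 0.74 to 0.96 for ENSRNOG00000050318, -0.67 to -0.48 for ENSRNOG00000017577 and -0.30 to -0.16 for ENSRNOG00000059215, where -0.16 came from library totals. The 4 genes were picked by p from the same libraries, so their kept direction is no independent support. ENSRNOG00000050318 fell under the filter of a mean of 5 CPM and passed 0.01 under DESeq2 only (log2 difference 0.82, adjusted p 0.00194). The difference between ages on PC1 was 0.601 to 0.753 of the pooled SD in the alternatives against 0.625. The replicate numbers were looked at as a pairing of the ages. Deviations of same-numbered animals correlated with a median of 0.083 (range -0.356 to 0.590, 5 of 10 over 0.1), and 2 of 10 animals correlated best with their own number. Correlations of differently numbered animals were not set beside these, so whether same-numbered animals share more than a number was not tested. The fit with the replicate block called 0 genes and put 1461 at an unadjusted p under 0.05. Alternatives for gene lists were not run, since identifiers could not be named. The precision of the age differences is set by 10 animals per age, and counting noise was not separated from the spread between animals.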
